A study of Mus musculus with 4 samples.

Results

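The genes H2ac10, H2ac12, H2ac13, H2ac20, H2ac22 and H2ac24 are members of the replication-dependent histone H2A family and were followed across plasma cells and naive B cells of the mouse spleen. They are 6 of 8137 genes that could be named on the arrays, each has 1 probe, and the probes were found by the NCBI gene number that the probe identifier carries. The genes were chosen by their measured levels on these same arrays, where their probes stood out in Blimp1-int plasma cells in earlier results, so their own levels and differences are a description and carry no test. Tests are given for other genes only. The older names of the 6 genes are Hist1h2af (H2ac10), Hist1h2ah (H2ac12), Hist1h2ai (H2ac13), Hist2h2ac (H2ac20), Hist1h2an (H2ac22) and Hist1h2ap (H2ac24).

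RNA was measured on 4 single-colour Illumina arrays of cells sorted from C57BL/6 spleens, all of the genotype labelled prmd1-gfp, a reporter line in which green fluorescent protein reports expression of Blimp1, the transcription factor that drives plasma cell differentiation. CD138+ plasma cells with a high reporter level (Blimp1-hi) fill 1 array, CD138+ plasma cells with an intermediate level (Blimp1-int) fill 2 arrays, and B220+ IgD+ naive follicular B cells fill 1 array. The plasma cells were sorted from pools of 5 to 10 animals, no treatment was given, and ages are not in the labels. The source field of the 3 plasma cell arrays names follicular B cells instead, which conflicts with their titles and gates, and the groups used here follow the titles. Whether the Blimp1-int arrays are of different animals is not stated, so the spread between them may be technical. Levels are the deposited log2 signals, and a difference of 1 is 2-fold if the scale is a plain log2, which the sources used here do not state.

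H2A is one of the core histones that wrap DNA into nucleosomes, in pairs with H2B. Replication-dependent histone genes lie in clusters, lack introns and are transcribed mainly in S phase, when new DNA has to be packed. Their mRNAs end in a stem-loop in place of a poly(A) tail, are held by the stem-loop binding protein and are degraded when DNA synthesis stops. In the spleen, plasma cells with a lower Blimp1 level include plasmablasts, which still divide, while plasma cells with a high level have mostly left the cell cycle. The labelling kit named in the labels copies RNA from an oligo(dT) primer, and how much of the mRNAs without a tail it captures was not measured here. The coding sequences of H2A genes are near identical, so that a probe may bind transcripts of several copies. The 6 probes are therefore not 6 independent measurements.

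The promoters of the 6 genes are shown because the 6 genes had the same order of levels over the arrays. Each is the 150 bases before the annotated start, from RefSeq on GRCm38.p6, written on the gene's own strand, and all 6 genes had an entry. They lie at chr13:23533725-23533874 on the plus strand (H2ac10), chr13:22035644-22035793 on the minus strand (H2ac12), chr13:21716262-21716411 on the plus strand (H2ac13), chr3:96220881-96221030 on the minus strand (H2ac20), chr13:21787249-21787398 on the minus strand (H2ac22) and chr13:21833476-21833625 on the minus strand (H2ac24). Capitals mark the word CCAAT on either strand, which reads ATTGG when it lies on the other one, the word TATAA on either strand, and an E2F-like word (TTTCCCGC, TTTCGCGC, TTTGCCGC or TTTGGCGC on either strand).
H2ac10: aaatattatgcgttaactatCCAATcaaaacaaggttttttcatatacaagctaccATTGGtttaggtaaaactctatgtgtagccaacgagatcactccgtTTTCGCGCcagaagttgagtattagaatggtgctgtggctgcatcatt
H2ac12: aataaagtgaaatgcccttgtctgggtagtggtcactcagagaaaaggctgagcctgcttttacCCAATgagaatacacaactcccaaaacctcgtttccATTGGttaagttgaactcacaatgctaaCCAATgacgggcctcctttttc
H2ac13: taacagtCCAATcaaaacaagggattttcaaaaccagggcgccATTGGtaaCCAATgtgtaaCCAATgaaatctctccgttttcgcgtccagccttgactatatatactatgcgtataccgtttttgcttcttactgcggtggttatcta
H2ac20: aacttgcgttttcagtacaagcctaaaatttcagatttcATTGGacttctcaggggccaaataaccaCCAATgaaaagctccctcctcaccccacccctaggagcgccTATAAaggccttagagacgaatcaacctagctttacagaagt
H2ac22: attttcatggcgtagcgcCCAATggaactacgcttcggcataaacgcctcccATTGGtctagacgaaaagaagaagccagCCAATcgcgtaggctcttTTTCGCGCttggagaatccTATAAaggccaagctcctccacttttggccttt
H2ac24: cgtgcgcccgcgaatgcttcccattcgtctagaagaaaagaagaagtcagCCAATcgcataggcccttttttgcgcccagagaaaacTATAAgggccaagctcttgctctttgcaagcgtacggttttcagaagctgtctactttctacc

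A CCAAT word, the motif of the NF-Y factor, was present in 6 of 6 windows, and 5 of the 6 held at least 2. H2ac13 had 4, H2ac12 and H2ac22 had 3, H2ac10 and H2ac20 had 2, and H2ac24 had 1. The word is common to the wider family: it was in 78.7% of the windows of 47 other replication-dependent core histone genes and in 24.5% of all 32851 promoter windows. At least 2 copies were in 63.8% of the other histone windows and in 6.02% of all windows.

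TATAA, the core of the TATA box, was in the windows of H2ac20 (positions -42 to -38 from the annotated start), H2ac22 (-33 to -29) and H2ac24 (-63 to -59), against 48.9% of the other core histone windows and 14.2% of all windows. The E2F-like word, named for the factors that open S phase, occurred in H2ac10 (-48 to -41) and H2ac22 (-52 to -45), both times as TTTCGCGC, and in 4.26% of the other core histone windows and 1.24% of all. The octamer ATTTGCAT on either strand, the word bound by Oct1 in H2B promoters, was in 0 of the 6 windows, in 21.3% of the other core histone windows and in 0.998% of all windows. No word searched overlapped another in these 6 windows. A match describes the letters and shows no binding. Aligned in pairs, the 6 windows were 42.3% to 57.5% identical, with H2ac10 and H2ac13 at 57.5% and H2ac22 and H2ac24 at 56.1%.

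All 6 probes were above background on 4 of 4 arrays, so the filter on dim probes took none of them out. Their levels were highest on both Blimp1-int arrays. H2ac24 lay at 12.73 in Blimp1-hi cells and at 15.02 and 14.61 in Blimp1-int cells, against 12.57 in naive B cells. H2ac13 lay at 12.46 in Blimp1-hi cells and at 14.47 and 14.29 in Blimp1-int cells, against 12.27 in naive B cells. Both Blimp1-int arrays stand well above the other 2, and the Blimp1-hi and naive arrays lie close together.

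H2ac10 lay at 12.08 in Blimp1-hi cells and at 14.02 and 13.52 in Blimp1-int cells, against 11.21 in naive B cells. H2ac22 lay at 12.04 in Blimp1-hi cells and at 14.03 and 13.46 in Blimp1-int cells, against 11.29 in naive B cells. For these genes the Blimp1-hi array sits between the Blimp1-int arrays and the naive array, nearer to naive. H2ac20, the only one of the 6 on chromosome 3, lay at 12.14 in Blimp1-hi cells and at 14.08 and 13.58 in Blimp1-int cells, against 11.97 in naive B cells. H2ac12 lay at 9.82 in Blimp1-hi cells and at 11.18 and 10.89 in Blimp1-int cells, against 9.54 in naive B cells. In all 6 genes the order of the groups was Blimp1-int, Blimp1-hi, naive, and the 2 Blimp1-int arrays did not overlap with either of the other arrays.

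**Figure D1:**
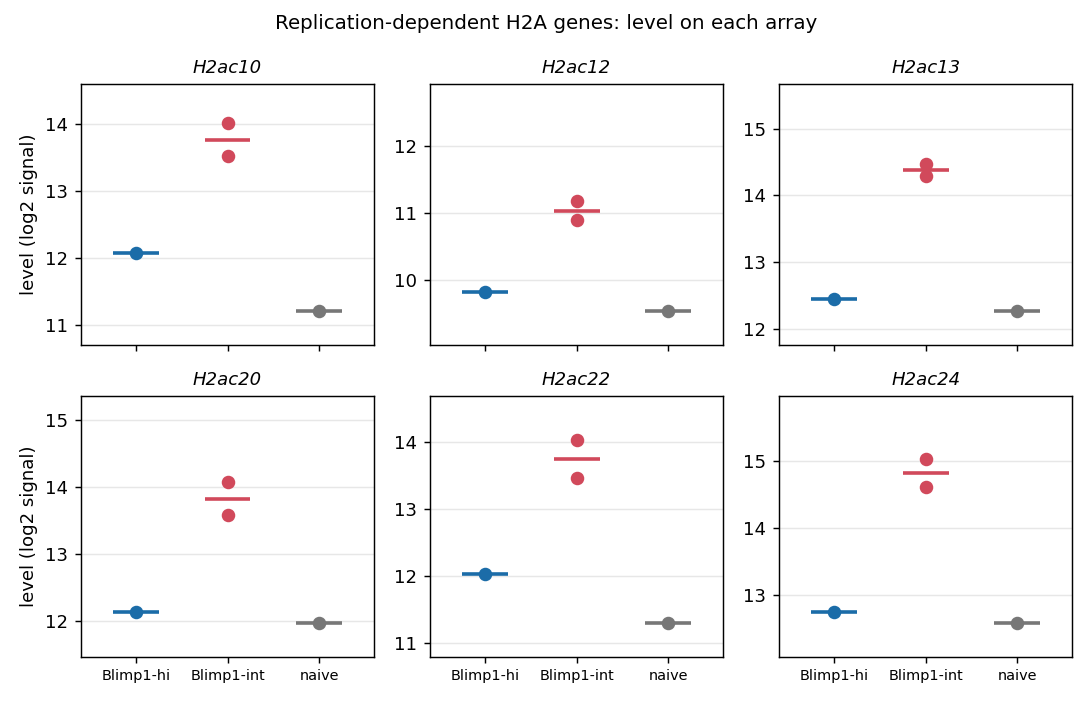
Level of each of the 6 H2A genes (log2 signal, y axis) on the Blimp1-hi array, the 2 Blimp1-int arrays and the naive array, with points for arrays and a bar for the group mean; every panel spans the same height, from a start set by the gene's naive level. In every panel the Blimp1-int points lie above the other points, and in H2ac13, H2ac20 and H2ac24 the Blimp1-hi and naive points differ by under 0.2.

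Such an order is not rare on these arrays: in 27.5% of the 2789 genes tested both Blimp1-int arrays lay above both the Blimp1-hi and the naive array. The lower Blimp1-int array exceeded the Blimp1-hi array by 1.08 (H2ac12) to 1.88 (H2ac24) and the naive array by 1.36 (H2ac12) to 2.32 (H2ac10). Both Blimp1-int arrays were at least 2-fold above each of the other arrays in 8 genes, 0.287% of those tested, and these 8 were the 6 H2A genes, Mki67 and Spc24. This 2-fold rule was chosen after the values were seen.

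The Blimp1-int replicates differed more in these genes than in most. Replicate 1 was above replicate 2 in 6 of 6, by 0.19 (H2ac13) to 0.57 (H2ac22), while 52.8% of all genes tested had replicate 1 above. The standard deviation of the pair was 0.13 in H2ac13, 0.20 in H2ac12, 0.29 in H2ac24, 0.35 in H2ac10, 0.35 in H2ac20 and 0.41 in H2ac22. The median over all genes tested was 0.0594 and the 90th percentile 0.157, so that H2ac13 alone of the 6 lay below that percentile.

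Blimp1-int plasma cells exceeded naive B cells by 2.56 in H2ac10 (5.91-fold), 2.45 in H2ac22 (5.47-fold), 2.24 in H2ac24 (4.74-fold), 2.11 in H2ac13 (4.32-fold), 1.86 in H2ac20 (3.64-fold) and 1.50 in H2ac12 (2.83-fold). The median of the 6 was 2.18, and that of all 2789 genes was 0.03. In that comparison 5.63% of genes were called higher and 5.45% lower, a call being an adjusted p under 0.05 in limma and a difference of at least 1. The same contrast chose the members, so nothing is read from their place in it. H2ac10 had the 15th largest difference and H2ac12 the 61st.

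Blimp1-hi plasma cells lay below Blimp1-int cells in all 6 genes, with differences of -2.08 in H2ac24, -1.92 in H2ac13, -1.71 in H2ac22, -1.69 in H2ac10, -1.69 in H2ac20 and -1.22 in H2ac12. The median of the 6 was -1.70, against -0.06 for all genes. As folds, Blimp1-int exceeded Blimp1-hi by 2.33-fold in H2ac12 to 4.23-fold in H2ac24. Between the plasma cell populations 0.394% of the genes tested were called lower in Blimp1-hi (11 genes) and 0.251% higher. By the adjusted p alone 10.6% were lower and 3.26% higher. The 6 members are among the genes these shares count, so the share called lower is not a background apart from them. Of all 2789 genes, H2ac24, H2ac13, H2ac22, H2ac10 and H2ac20 had the 5 largest differences in that direction, Spc24 the 6th and H2ac12 the 7th. The members were chosen for standing out in Blimp1-int cells, so nothing is read from these ranks either.

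**Figure D2:**
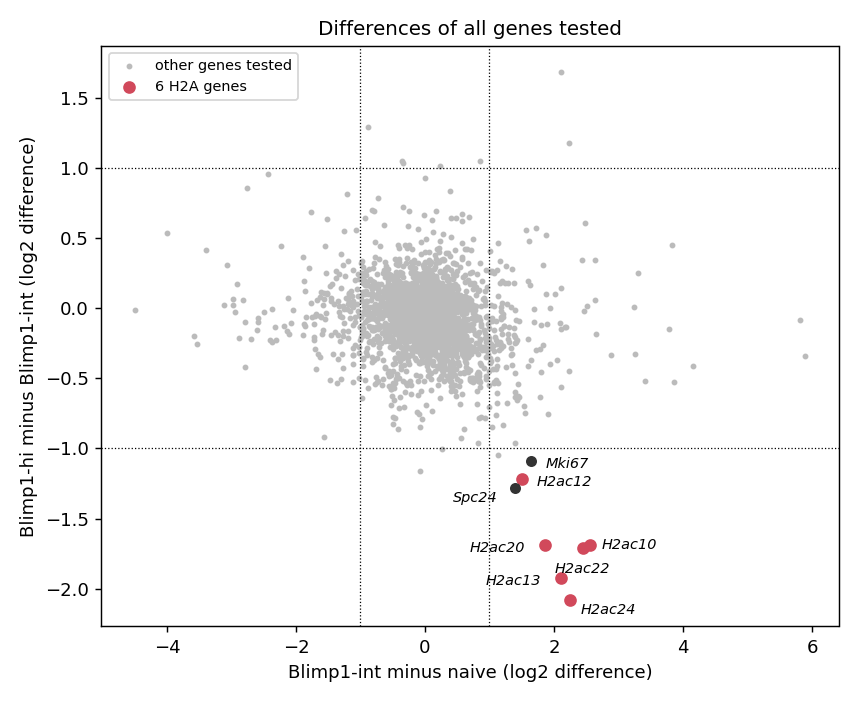
Log2 difference of each of the 2789 genes tested between Blimp1-int and naive cells (x axis) and between Blimp1-hi and Blimp1-int cells (y axis), with dotted lines at a difference of 1 in either direction. The 6 H2A genes (red) lie at 1.50 to 2.56 on the x axis and at -2.08 to -1.22 on the y axis, and the other genes of that corner are Mki67 and Spc24 (black) and Cdc20 (grey, at 1.13 and -1.05).

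Blimp1-hi and naive cells differed less. The difference was 0.87 in H2ac10 (1.83-fold) and 0.74 in H2ac22, and 0.28 in H2ac12, 0.19 in H2ac13, 0.18 in H2ac20 and 0.17 in H2ac24, with a median of 0.23 against -0.04 for all genes. In that comparison 4.23% of genes were called higher and 7.28% lower. The direction in 3 of the genes depended on the scaling: under cyclic loess Blimp1-hi lay below naive cells by -0.27 in H2ac13, -0.22 in H2ac20 and -0.35 in H2ac24. The Blimp1-int mean remained the highest in all 6 genes under every scaling run. With 1 array each, neither Blimp1-hi nor naive cells have a measured spread for these genes. In these bulk samples, fewer cells of a type and less RNA per cell cannot be told apart.

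**Figure D3:**
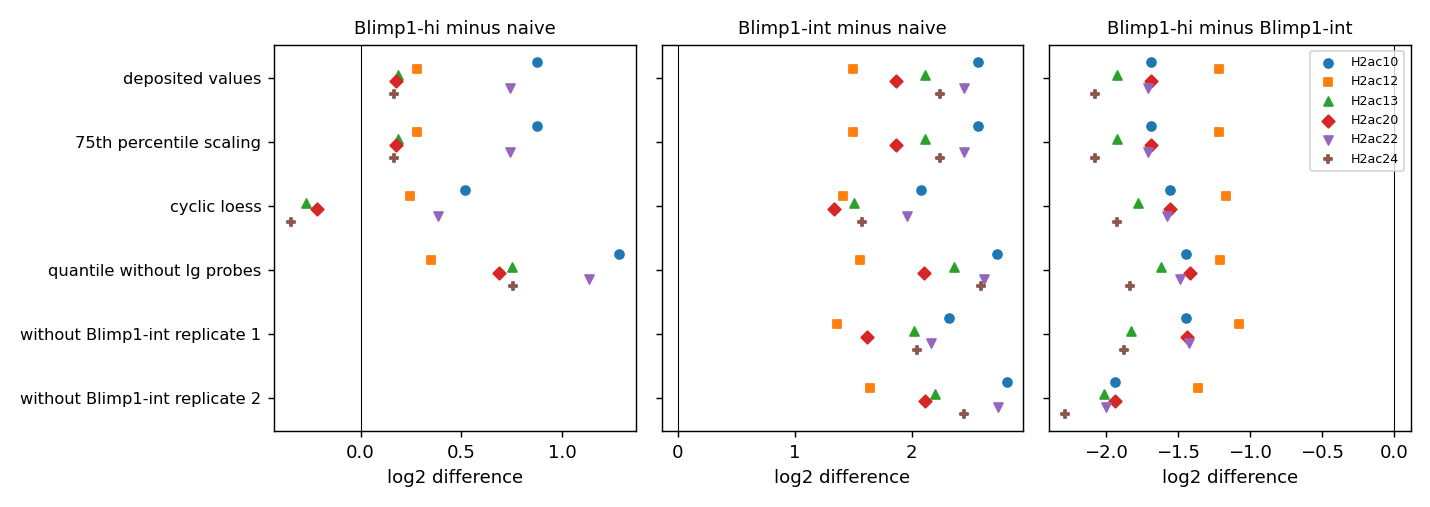
Log2 difference of each of the 6 H2A genes in the 3 comparisons (x axes), with the deposited values, under 3 other scalings and without either Blimp1-int replicate (rows; the Blimp1-hi to naive comparison holds no Blimp1-int array). Differences that involve Blimp1-int stay on one side of 0 in every row, while 3 genes cross 0 between Blimp1-hi and naive cells under cyclic loess.

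With each profile set to 0 on the naive array, the closest pair over the 4 arrays was H2ac10 and H2ac22 (Euclidean distance 0.21), followed by H2ac13 and H2ac24 (0.25). The farthest pair was H2ac10 and H2ac12 (1.62). H2ac10 and H2ac22, which hold the E2F-like word, had the 2 largest differences between Blimp1-hi and naive cells. That is a description of 2 genes seen after the fact. The levels of these 2 probes differed by at most 0.0866 on any array, so they may not be separate observations. Cross-binding of the probes was not tested.

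The H2A family has other replication-dependent members. Of 12 further replication-dependent H2A genes listed, 4 had a probe and 3 exceeded background on at least 1 array. None of the 3 was called in any comparison, where 0.251% to 7.28% of all genes were by comparison and direction. By the adjusted p alone Blimp1-hi exceeded naive cells in all 3 (21% of all genes passed as higher by it and 28.9% as lower). Among these 3, H2ac6 passed the filter only through the Blimp1-hi array, so its place in that count follows in part from the filter. H2ac19 lay at 10.52 in Blimp1-hi cells and at 9.81 and 9.89 in Blimp1-int cells, against 9.87 in naive B cells. Its Blimp1-hi array was the highest, by 0.67 over Blimp1-int (SE 0.11, limma adjusted p = 0.000429), where 3.26% of all genes passed the adjusted p alone as higher, and Blimp1-int differed from naive by -0.02.

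H2ac18, the neighbouring near-identical copy, lay at 9.69 in Blimp1-hi cells and at 9.44 and 9.54 in Blimp1-int cells, against 8.83 in naive B cells. Both plasma cell differences were under 2-fold (0.86, limma adjusted p = 1.51e-05, and 0.66, limma adjusted p = 4.83e-05). H2ac6 exceeded background on the Blimp1-hi array only (8.88), and H2ac1, known as a histone of the testis, was below background on all 4 arrays. In H2ac18 and H2ac19 the Blimp1-hi array was the highest. For H2ac6 that order follows from the filter, which it passed through the Blimp1-hi array alone.

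H2B is the partner of H2A in the nucleosome. Of 19 replication-dependent H2B genes listed, 13 had a probe and 9 were tested, and none was called in any comparison. Calls were few over all genes too, 0.251% to 7.28% by comparison and direction, so nothing is read from their absence in 9 genes. The Blimp1-int minus naive differences of the 9 ran from 0.18 (H2bc13, below background in naive cells and so inexact) to 0.73 (H2bc22), with a median of 0.26, and 4 passed the adjusted p alone as higher (27.1% of all genes did). H2bc22 lay at 9.54 in Blimp1-hi cells and at 9.68 and 9.54 in Blimp1-int cells, against 8.88 in naive B cells (Blimp1-int minus naive, limma adjusted p = 1.83e-05). Between Blimp1-hi and Blimp1-int the H2B median was 0.08 and none of the 9 passed the adjusted p. The corresponding median of the 6 H2A genes was -1.70. In naive B cells the 9 H2B probes lay at 8.57 to 8.88, close to the background cutoffs of 8.60 to 8.67.

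H2A and H2B genes often share one promoter region and are read in opposite directions from it. In the promoter table H2ac12 stands head to head with H2bc12 (178 bases between the starts), H2ac13 with H2bc13 (229 bases) and H2ac22 with H2bc22 (240 bases). Blimp1-int minus naive was 1.50 in H2ac12 and 0.55 in H2bc12, 2.11 in H2ac13 and 0.18 in H2bc13, and 2.45 in H2ac22 and 0.73 in H2bc22. Blimp1-hi minus Blimp1-int was -1.22 in H2ac12 and -0.15 in H2bc12, -1.92 in H2ac13 and 0.08 in H2bc13, and -1.71 in H2ac22 and -0.07 in H2bc22. In each of these pairs the H2A gene had the larger difference between the plasma cell populations. In Blimp1-hi and the 2 Blimp1-int arrays H2bc13 lay at 8.83, 8.76 and 8.74, and H2bc12 at 9.03, 9.25 and 9.12. These levels are close to the background cutoffs, where a probe resolves little. H2bc22 lay somewhat higher, at 9.54, 9.68 and 9.54. Whether the genes of a pair respond differently was not tested and cannot be read from probes this dim. The naive array was below background for H2bc12 and H2bc13, so their differences from naive are not exact, and as bounds Blimp1-int exceeded naive by at least 1.45-fold in H2bc12 and by at least 1.07-fold in H2bc13. Next to H2ac20 lies H2bc21, whose naive level was below background too, with Blimp1-int above it by at least 1.16-fold. The gene before H2ac10 is H4c8, which exceeded background on 1 array only, so no fold is given. H2ac24 stands head to head with a gene named H4bc24 (268 bases), for which no level was available.

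H3 and H4 form the inner tetramer of the nucleosome. Of 12 replication-dependent H3 genes 6 were tested. H3c10 was called higher in both plasma cell populations: it lay at 10.37 in Blimp1-hi cells and at 10.57 and 10.31 in Blimp1-int cells, against 9.27 in naive B cells. H3c10 rose by 1.10 in Blimp1-hi cells (SE 0.14, limma adjusted p = 2.8e-06) and by 1.17 in Blimp1-int cells (SE 0.12, limma adjusted p = 1.62e-07). The other 5 were not called. By the adjusted p alone Blimp1-int exceeded naive cells in 6 of 6, where 27.1% of all genes passed as higher, with a median of 0.70. H3c2 and H3c11 were below background in naive cells, so that median includes inexact differences. H3c11 was at least 1.14-fold higher in Blimp1-int. It exceeded background on the Blimp1-int arrays only, so its place in the count of 6 follows in part from the filter.

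Between the plasma cell populations no H3 gene was called, and 3 of 6 were lower in Blimp1-hi by the adjusted p alone, H3c4 (-0.38), H3c6 (-0.44) and H3c11 (below background in Blimp1-hi and at least 1.13-fold lower), where 10.6% of all genes were. H3c11 passed the filter only through the Blimp1-int arrays, so its place among these 3 is not independent of the filter. H3c6 lay at 8.92 in Blimp1-hi cells and at 9.37 and 9.36 in Blimp1-int cells, against 8.67 in naive B cells. This is the order of the 6 H2A genes at a smaller size. Of 13 H4 genes 9 were tested and none was called, where 0.251% to 7.28% of all genes were by comparison and direction. Their Blimp1-int minus naive median was 0.16. In H4c11 the naive level was below background and Blimp1-int exceeded it by at least 1.32-fold, and H4c2, below background in Blimp1-int, was at least 1.09-fold lower there. Of the 9, 3 were higher and 1 lower by the adjusted p alone (27.1% and 27.9% of all genes). The lower one, H4c2, exceeded background on the naive array only and so passed the filter through that array. Of 8 linker H1 genes 2 had a probe and neither exceeded background.

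Variant histones are made outside S phase as well, and their mRNAs carry a poly(A) tail. H2az1, which encodes H2A.Z, a variant of H2A at promoters, lay at 9.90 in Blimp1-hi cells and at 10.74 and 10.14 in Blimp1-int cells, against 8.99 in naive B cells. It rose by 1.45 in Blimp1-int over naive cells (SE 0.16, limma adjusted p = 6.28e-07). Blimp1-hi exceeded naive cells by 0.91 and lay below Blimp1-int by -0.54 (limma adjusted p = 0.0354), neither of them a call. The Blimp1-int arrays differed by more in H2az1 than in the 6 members.

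Cenpa, the H3 variant of centromeres, lay at 9.76 in Blimp1-hi cells and at 10.82 and 10.70 in Blimp1-int cells, against 10.50 in naive B cells. Blimp1-hi minus Blimp1-int was -1.004 (SE 0.11, limma adjusted p = 7.71e-06), a call just past the threshold that ended under cyclic loess (-0.95) and without the immunoglobulin probes (-0.99). H3f3a differed by 0.89 between Blimp1-hi and naive cells and by 0.79 between Blimp1-int and naive cells, and H3f3b by 0.28 and 0.12. These genes encode H3.3, which is laid down outside replication, and neither was called.

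**Figure D4:**
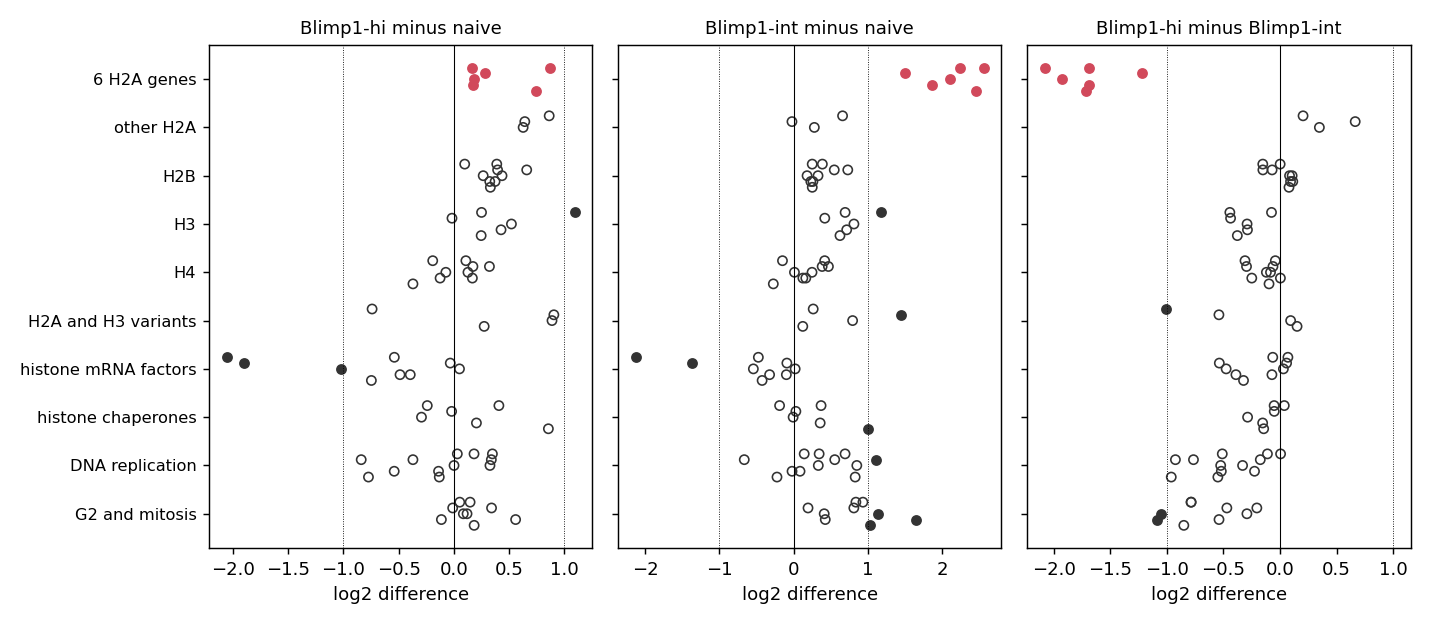
Log2 difference of the tested genes of each list in the 3 comparisons (x axes, dotted lines at 1 in either direction). Filled black points were called by limma, open points were not, and the 6 H2A genes (red) have no test; points are spread vertically within a list for legibility. In the middle and right panels the red points, at 1.50 to 2.56 and at -2.08 to -1.22, lie outside the range of the other core histone lists.

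Factors that make and process histone mRNA were measured in part. Of 26 genes listed 9 were tested, and none was called higher in any comparison, where 0.251% to 5.63% of all genes were. Nothing is read from that absence in 9 genes. By the adjusted p alone 7 of the 9 were lower in Blimp1-hi than in naive cells, against 28.9% of all genes. In Blimp1-int 6 were lower than in naive cells, against 27.9%. Snrpf and Snrpg, core proteins of spliceosomal particles of which the U7 particle that cuts histone mRNA shares some, fell in both plasma cell populations. Snrpf lay at 9.43 in Blimp1-hi cells and at 9.32 and 9.40 in Blimp1-int cells, against 11.49 in naive B cells (-2.06, SE 0.12, limma adjusted p = 1.86e-10 for Blimp1-hi). On the log2 scale Snrpg fell by 1.90 in Blimp1-hi cells and by 1.36 in Blimp1-int cells. Srrt, a partner of the cap-binding complex, fell in Blimp1-hi (-1.02, SE 0.12), a call that ended without the immunoglobulin probes (-0.87). Lsm10, a protein of the U7 particle itself, differed by -0.03 in Blimp1-hi and by -0.09 in Blimp1-int.

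Histone chaperones carry new histones to DNA. Of 20 listed 6 were tested. Rbbp7, a histone-binding subunit, was called higher in Blimp1-int, at least 1.73-fold over naive cells, where it was below background (limma adjusted p = 6.71e-06). Its difference lay at the threshold and missed it under 75th percentile scaling. Nasp, which binds H3 and H4, differed by -0.01 in Blimp1-int and by -0.29 in Blimp1-hi against naive cells, and neither passed the test.

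DNA replication genes are read in the same phase of the cell cycle as the 6 H2A genes. Of 49 listed 12 were tested. E2f2, an E2F transcription factor, was the called member: it lay at 9.24 in Blimp1-hi cells and at 9.95 and 10.05 in Blimp1-int cells, against 8.90 in naive B cells. It rose by 1.10 in Blimp1-int over naive cells (SE 0.11, limma adjusted p = 9.72e-08), where 5.63% of all genes were called higher. By the adjusted p alone Blimp1-int exceeded naive cells in 7 of 12 and lay below them in 1, Rfc2, against 27.1% and 27.9% of all genes. The median was 0.34. Among the 7, Rrm2 exceeded background on the Blimp1-int arrays only, so it passed the filter through that group.

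Between the plasma cell populations no replication gene was called, but 7 of 12 were lower in Blimp1-hi by the adjusted p alone, against 10.6% of all genes, with a median of -0.51. Rrm2, the ribonucleotide reductase subunit that limits the supply of nucleotides, lay at 8.33 in Blimp1-hi cells and at 9.44 and 9.13 in Blimp1-int cells, against 8.46 in naive B cells. It exceeded background on the Blimp1-int arrays only and was at least 1.53-fold higher there than in Blimp1-hi. Its place among the 7 therefore follows in part from the filter. Gins3, outside the 7, exceeded background on Blimp1-int replicate 1 only. Uhrf1, which maintains DNA methylation behind the fork, differed by -0.92 (SE 0.12, limma adjusted p = 8.26e-05). Pcna, the sliding clamp, differed by 0.01 between these populations.

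Genes of G2 and mitosis act after replication. Of 42 such genes listed 9 were tested. Mki67, the proliferation marker Ki-67, lay at 9.75 in Blimp1-hi cells and at 10.85 and 10.81 in Blimp1-int cells, against 9.19 in naive B cells. It rose by 1.65 in Blimp1-int over naive cells (SE 0.11, limma adjusted p = 3.71e-10) and fell by 1.09 on the log2 scale in Blimp1-hi against Blimp1-int (SE 0.11, limma adjusted p = 2.41e-06). Cdc20, which activates the anaphase-promoting complex, rose by 1.13 in Blimp1-int over naive cells and fell by 1.05 on the log2 scale in Blimp1-hi against Blimp1-int. Its probes disagreed, and the mean over them gave 0.53 and -0.41.

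Nusap1, a spindle protein, rose by 1.03 in Blimp1-int over naive cells (SE 0.12, limma adjusted p = 6.56e-07). By the adjusted p alone Blimp1-int exceeded naive cells in 8 of the 9 mitotic genes (median 0.84), against 27.1% of all genes. By the same rule 7 of the 9 were lower in Blimp1-hi than in Blimp1-int (median -0.78), against 10.6% of all genes. Tacc3, among the 8, and Stmn1, outside both counts, exceeded background on Blimp1-int arrays only. Both entered the list through that group, so the count of 8 and the medians follow in part from the filter. None of the 9 was called between Blimp1-hi and naive cells (median 0.12), where 4.23% of all genes were called higher and 7.28% lower. Of 13 cell cycle inhibitors 2 were tested and neither was called, where 0.251% to 7.28% of all genes were by comparison and direction. Ccng1 differed by -0.29 between Blimp1-hi and Blimp1-int, and Btg1 was below background in both. The part of these genes' cell cycle differences in the H2A differences was not tested.

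The likeness of other genes was measured as the Euclidean distance of their 4-array profile, set to 0 on the naive array, from the mean profile of the 6 members. The members themselves held ranks 1 to 4, 6 and 8 among the 2789 genes. Their own profiles set that mean, so these ranks follow in part from the measure. Among the listed genes Mki67 (distance 0.737, rank 5) and H2az1 (1.09, rank 13) were nearest. Outside the lists the 8 nearest were Rrbp1 (0.831), Sfxn1 (0.929), Cope (0.949), Gmppa (0.955), Jpt1 (1.05), Spc24 (1.09), Sspn (1.10) and Ckb (1.11).

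Rrbp1, a ribosome receptor of the endoplasmic reticulum, and Ckb, a creatine kinase, were below background in naive cells, so their distances rest on an inexact naive level. Over the other 6 of these genes Blimp1-int minus naive ran from 1.39 (Spc24) to 1.80 (Jpt1). Rrbp1 exceeded its naive level by at least 2.19-fold in Blimp1-hi cells and by at least 3.70-fold in Blimp1-int cells. Jpt1 differed by 1.34 between Blimp1-hi and naive cells, and the 6 H2A genes by at most 0.87. For Spc24, a kinetochore protein, Blimp1-int exceeded naive by 1.39 (limma adjusted p = 6.34e-09), Blimp1-hi lay below Blimp1-int by -1.28, and Blimp1-hi exceeded naive by 0.11. Ckb exceeded its naive level by at least 1.22-fold in Blimp1-hi cells and by at least 2.38-fold in Blimp1-int cells, and Blimp1-hi lay below Blimp1-int by -0.96.

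The sort was checked on the reporter and on plasma cell and B cell genes. The eGFP probe lay at 11.23 in Blimp1-hi cells and at 10.55 and 10.82 in Blimp1-int cells, against 8.29, below background, in naive B cells. Of 13 plasma cell markers tested 12 were called higher in each plasma cell population, and of 10 naive B cell markers 9 were called lower. Against naive cells the shares over all genes were 4.23% up and 7.28% down for Blimp1-hi. For Blimp1-int they were 5.63% up and 5.45% down. Both marker lists were drawn up with earlier results of these data known, so these counts are not an independent check of the sort. Of the 10 myeloid markers with a probe 2 were tested, and Apoe was higher in Blimp1-hi than in Blimp1-int by 1.05 (limma adjusted p = 8.17e-06). The other, Vcam1, exceeded background on Blimp1-int replicate 2 only (8.46 in Blimp1-hi cells and 8.44 and 8.99 in Blimp1-int cells, against 8.35 in naive B cells). The summed signal of the 2, as log2, was 10.36 on the Blimp1-hi array and 9.61 and 9.98 on the Blimp1-int arrays, against 9.85 on the naive array. The 2 T and NK cell markers with a probe were below background on all arrays, and the germinal centre gene Mef2b ran from 8.77 to 8.94. The stromal and erythroid genes tested were not called. Between 6608 and 7845 of 46120 probes exceeded background per array, the most on Blimp1-int replicate 1, which also had the highest level of all 6 H2A genes; its part in their levels was not tested, and without it Blimp1-hi minus Blimp1-int had a median of -1.44 over the 6.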

How the data were processed

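The values are log2 signals as the authors deposited them. The submitters' processing notes name lumi, without a version. Sorted, the values of the 4 arrays are almost equal (largest gap 0.0147), with a maximum of 16.03; the background step and the kind of log2 are not given in the sources used here. A further table holds 8 columns whose names match no sample, and none was used. Gene numbers in 11897 probe identifiers were looked up in a RefSeq table (GRCm38.p6, for names only), and 9832 matched.

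Background was the mean plus 3 SD, per array, of 45 probes for foreign sequences (8.60 to 8.67). Without those columns no detection p-values could serve as the filter that the design had first in view. Each gene is represented by its brightest probe that exceeded background somewhere, which left 2789 genes. A model with 3 groups was fitted with limma 3.58.1 in R 4.3.3, two-sided, with Benjamini-Hochberg adjustment over all 2789 genes. The spread comes from the Blimp1-int pair, with 1 residual degree of freedom (prior 16.6 degrees of freedom, prior SD 0.0895), so the single Blimp1-hi and naive arrays are assumed to vary like that pair. The number of arrays limits the precision. A named gene below background in a whole group is given a bound (at least N-fold) or its difference is said to be inexact. List medians, ranges and figures use the deposited differences of such genes. The fit was also run on simulated data. Every simulated array was given the same spread, so that run cannot show whether the single arrays vary like the pair.

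The members and the 19 gene lists were chosen with earlier results of these data known. The genes named are the 6 members, the listed histone genes above background, up to 4 called or 2 uncalled genes of every other list, Mki67, the sort checks and the 8 nearest genes outside the lists. Other names (such as H3c6, Nasp, Lsm10 and Pcna) were chosen after their values were seen. Alternatives were 75th percentile scaling, cyclic loess, quantile normalization without immunoglobulin probes, other filters, the mean of probes, the adjusted p alone, and leaving out either Blimp1-int array.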

Additional observations from a re-analysis of the deposited data

How the results depend on the processing

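Over the 6 H2A genes, Blimp1-int stayed above naive and above Blimp1-hi under every alternative run. The other filters, the mean of probes and the adjusted p alone could not alter these differences. Each of the 6 genes has 1 probe, above background on all 4 arrays. Scaling to the 75th percentile hardly moved them, since the sorted arrays were already almost equal. Only cyclic loess, quantile normalization without immunoglobulin probes and leaving out a replicate could move them much. Under cyclic loess the median was 0.0141 for Blimp1-hi minus naive and 1.54 for Blimp1-int minus naive, and H2ac13 (-0.27), H2ac20 (-0.22) and H2ac24 (-0.35) reversed between Blimp1-hi and naive cells. With quantile normalization without the immunoglobulin probes the medians were 0.75 for Blimp1-hi minus naive, 2.48 for Blimp1-int minus naive and -1.47 for Blimp1-hi minus Blimp1-int, and 133 genes were called lower in Blimp1-hi than in naive cells, against 203. Leaving out either Blimp1-int replicate moved the Blimp1-hi minus Blimp1-int median between -1.97 and -1.44 and the Blimp1-int minus naive median between 2.03 and 2.33. With 1 array left there is no test, and 3 (without replicate 1) to 9 genes passed 2-fold as higher in Blimp1-hi than in Blimp1-int, against 7 called. By the adjusted p alone 587 genes were higher and 806 lower in Blimp1-hi than in naive cells, 755 and 778 in Blimp1-int than in naive cells, and 91 and 296 in Blimp1-hi than in Blimp1-int; the fold threshold sets these counts. The cause of the other changes was not tested. The median of all genes moved by at most 0.0509 under any setting. Among the named genes outside the 6, calls ended in 1 case under 75th percentile scaling, 1 under cyclic loess, 4 with the mean of probes and 2 without the immunoglobulin probes, where 2 were gained, H3f3a and Cope in Blimp1-hi over naive cells.

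No paired analysis was possible because the Blimp1-hi and naive groups have 1 array each. A probe near background resolves little, which touches most H2B and H4 genes. Blimp1-int levels of H2ac24 near 15 approach the top of the scale at 16.03.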

Other observations

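The gene lowest in Blimp1-hi against Blimp1-int outside the lists and the H2A family, beside Spc24, was Anapc5, a subunit of the anaphase-promoting complex, which lay at 10.40 in Blimp1-hi cells and at 11.52 and 11.61 in Blimp1-int cells, against 11.64 in naive B cells. Its naive level is close to its Blimp1-int levels, while in the 6 H2A genes the naive level lay below both Blimp1-int levels by 1.36 or more. Anapc5 was chosen after its value was seen.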
